A study of Mus musculus with 6 samples.

Results

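The MHC class I presentation genes are 10 of the 52550 genes counted in activated mouse splenic T cells: the heavy chain genes H2-K1, H2-D1, H2-Q7 and H2-T23, the light chain gene B2m, the peptide transporter genes Tap1 and Tap2, the loading factor gene Tapbp, the trimming peptidase gene Erap1 and the regulator gene Nlrc5. They were found by matching the Ensembl identifier of each row, without its version, to these symbols, and they own 56 of the 131146 transcripts counted. The matching rule itself uses no measured value, and the genes were proposed with earlier results of these data known. At 24 h none of the 10 passed the test for a difference between T cells activated alone and those activated with DMGV, as the labels name it. The estimated changes ran from 0.935-fold for Tap1 to 1.19-fold for B2m.

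MHC class I molecules display peptides from inside the cell to CD8+ T cells and are also read by natural killer cells. A heavy chain pairs with beta-2 microglobulin in the endoplasmic reticulum, where TAP delivers peptides cut by the proteasome, tapasin bridges TAP to the waiting molecule and ERAP1 trims peptides to length. Lymphocytes hold much class I, and in T cells NLRC5 is a main transactivator of the heavy chain, B2m and Tap1 genes.

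RNA was sequenced from 6 samples of CD3+ T cells isolated from the spleens of wild-type mice. All were stimulated for 24 h with anti-CD3/CD28 activators, which engage the T cell receptor (TCR) and its costimulator. The 3 samples called TCR alone received nothing else, and the 3 called TCR+DMGV received DMGV (dimethylguanidino valeric acid) at 100 ng/ml according to the labels. The study's text and legend for this experiment instead name LNY1, a purified fraction of fibroblast medium that the study equates with ADMA and SDMA. Its legend gives LNY1 at 100 ng/ml, the dose in the labels, whereas its stated DMGV doses for cultured cells are in µM. The identity of the added compound therefore rests on the labels alone, and the name TCR+DMGV follows them. The labels give no strain, sex or age and call the samples biological replicates, with no further word on separate animals. The study's methods list C57BL among several mouse strains, and both sexes, without saying which gave these cells. P-values here measure the spread between these samples. No unstimulated sample was analysed here, so no value below describes the response to activation itself.

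The counts summed to between 37758725 and 43718867 per sample. These totals lie above the read depth that the labels state, and how reads became counts is not given in the sources used here. T cell markers were abundant, with 14 genes summing to 4188 to 4564 CPM (counts scaled to library size) in TCR alone against 4531 to 4815 in TCR+DMGV. The 12 B cell markers summed to 249.3 to 274 CPM and 251 to 261 CPM, nearly all of it Ighm, while Ms4a1, which encodes CD20, averaged 0.875 and 0.852 CPM. The 12 macrophage, monocyte and dendritic cell markers summed to 15.9 to 21.4 CPM and 16.8 to 20.3 CPM, the 8 natural killer cell markers to 55.1 to 65.1 CPM and 62.5 to 75.1 CPM, and the 8 stromal markers to 32.5 to 37.4 CPM and 35.7 to 37.3 CPM. All 8 neutrophil markers had 0 counts in all samples. Means were higher in TCR+DMGV for 13 of the 14 T cell markers, against 50.6% of all genes. They were higher for 4 of the 5 natural killer cell markers tested and for 3 of the 7 B cell markers tested. The 8 erythroid markers summed to 4.01 to 5.37 CPM in TCR alone against 2.36 to 3.88 CPM in TCR+DMGV, ranges that did not overlap. In 2 samples, TCR alone replicate 3 and TCR+DMGV replicate 1, counts rose with the GC content of the transcript, by 0.24 and 0.16 on the log2 scale per 10 points of GC over 9036 genes, whereas TCR alone replicates 1 and 2 fell by 0.16 each. In bulk RNA, fewer cells of a type and less RNA per cell cannot be told apart.

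On GRCm38, 7 of the 10 genes lie on chromosome 17, in the mouse MHC and its borders: Tapbp (33915899 to 33929292), H2-K1 (33996017 to 34000347), Tap1 (34187553 to 34197225), Tap2 (34203527 to 34216321), H2-D1 (35262730 to 35267499), H2-Q7 (35439155 to 35443773) and H2-T23 (36029773 to 36032855). H2-K1 and H2-T23 are on the minus strand and the others on the plus strand. B2m is on chromosome 2 (122147686 to 122153083), Nlrc5 on chromosome 8 (94434356 to 94527272) and Erap1 on chromosome 13 (74639568 to 74693201), all on the plus strand. Tap1 overlaps the immunoproteasome gene Psmb9, Tap2 overlaps Gm15821 and Gm20496, Tapbp overlaps Zbtb22 and Gm19412, B2m overlaps Patl2, Erap1 overlaps Cast, Nlrc5 overlaps 9330175E14Rik and Mir7072, and H2-T23 overlaps A930015D03Rik. Whether the counting used strand is not stated, so reads from the shared parts of such genes cannot be told apart.

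Of the 10 genes, 8 had a promoter in the RefSeq table for GRCm38.p6, which holds 250 bases before and 50 bases after each start. Nlrc5 and Tap2 had none there. The classical heavy chain genes are known for a compact upstream block. In it a kappa B element, an interferon-stimulated response element and the box bound by NLRC5-containing complexes follow each other. The stretches below show that block for the classical gene H2-K1 and the matching letters for the nonclassical gene H2-Q7. The stretch of B2m, the light chain gene, was cut to start just before TGACG, so it does not show what lies further upstream. Capitals mark GGATTCC (a form of the core of the kappa B element), TTTCNNTTC (a form of the response element), TGACG and CCAAT. Each was searched on both strands, so that ATTGG is CCAAT read from the other strand. Other forms of the elements were not searched. No match overlaps another in these stretches. All stretches are written 5′ to 3′ on the strand of the gene.
H2-K1 (GRCm38.p6 chr17:34000335-34000467, minus strand): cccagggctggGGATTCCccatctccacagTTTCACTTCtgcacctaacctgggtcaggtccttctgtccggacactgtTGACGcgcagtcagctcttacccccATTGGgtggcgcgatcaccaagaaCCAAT
H2-Q7 (GRCm38.p6 chr17:35439012-35439143, plus strand): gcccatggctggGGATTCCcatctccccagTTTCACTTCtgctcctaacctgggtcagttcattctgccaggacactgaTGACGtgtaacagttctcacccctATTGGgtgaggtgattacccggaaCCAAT
B2m (GRCm38.p6 chr2:122147599-122147638, plus strand): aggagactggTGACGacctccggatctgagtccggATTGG

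The H2-K1 stretch reaches from upstream of the gene into the first bases of its first exon, the H2-Q7 stretch lies wholly upstream of the gene, and the B2m stretch lies upstream of B2m within the span of Patl2. The kappa B letters stood in the promoters of H2-K1, H2-D1 and H2-Q7 and in 3.79% of all 32851 promoters. The letters TTTCNNTTC stood in the same 3 genes and in 7.52% of all promoters. Similar letters were not counted, among them TTTCACTTTC in the Erap1 window and GAAACTGAAA in the B2m window. Absence of either element from the other promoters is therefore not shown. TGACG was present in 5 of the 8 promoters, those of H2-K1, H2-D1, H2-Q7, B2m and Tap1, against 20.8% of all, and CCAAT in 7 of the 8, against 37.4% of all. The response element began 19 bases after the start of the kappa B letters in H2-K1 and H2-D1 and 18 bases after it in H2-Q7, and TGACG began 49 bases after the start of the response element in H2-K1, H2-D1 and H2-Q7. From TGACG to ATTGG were 25 bases in H2-K1, H2-D1 and B2m and 24 in H2-Q7. The H2-D1 block lies in the annotated first exon of transcript H2-D1-202. Over the whole windows, aligned end to end, H2-K1 was 59.3% identical to H2-D1 and 63.7% to H2-Q7, and H2-D1 was 64.3% identical to H2-Q7. The H2-T23 window, with CCAAT alone among these letters, was 45.0% to 49.4% identical to the other 3. A match describes letters only.

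Levels of different genes were compared as FPKM, the authors' fragment values scaled to gene length and library size. B2m, which every class I molecule needs as its light chain, was by far the most abundant, at 1679 ± 232 FPKM (SD over all 6 samples). H2-K1 and H2-D1, the classical heavy chains that present most peptides, followed at 361 ± 32.0 and 356 ± 28.6 FPKM, and their samples overlapped. The nonclassical heavy chains were lower, with H2-T23, which encodes Qa-1, at 66.0 ± 4.89 FPKM and H2-Q7, which encodes a Qa-2 chain, at 59.1 ± 4.73 FPKM. The machinery came next. Tapbp, encoding tapasin, was at 50.3 ± 6.01 FPKM, and its samples overlapped those of H2-Q7. Tap1 (33.1 ± 2.55 FPKM), Erap1 (31.0 ± 5.60 FPKM) and Tap2 (28.8 ± 4.51 FPKM) lay within one another's spread. Nlrc5 was the lowest, at 17.6 ± 0.641 FPKM, and below every sample of Tap2. Of the 9 neighbouring pairs in this order, 5 overlapped in their 6-sample ranges: H2-K1 with H2-D1, H2-T23 with H2-Q7, H2-Q7 with Tapbp, Tap1 with Erap1, and Erap1 with Tap2. When CPM was divided by the length of each gene's main transcript instead, H2-K1 stood apart above H2-D1, Tap1 ranked above H2-Q7, and 3 pairs overlapped. This scale differs from FPKM in both the length and the read measure. For H2-Q7 the length is that of the retained-intron H2-Q7-206, 4209 bases.

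**Figure D1:**
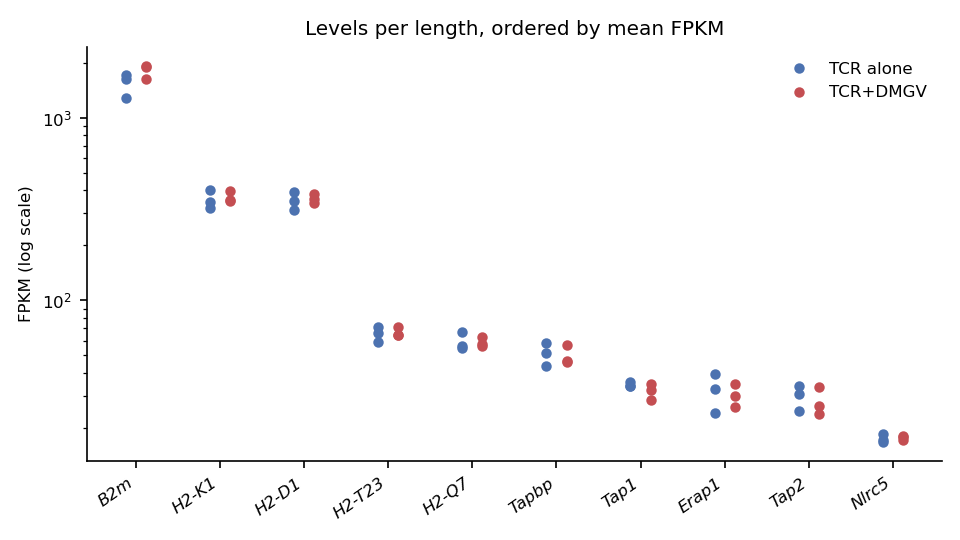
FPKM on a log axis for each of the 10 genes, ordered by mean, with 1 point per sample (blue TCR alone, red TCR+DMGV, 3 samples each). The lowest B2m sample is at 1286 FPKM and the highest Nlrc5 sample at 18.5 FPKM, and within each gene the samples of both groups overlap.

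The balance of light to heavy chain RNA was read as the ratio of B2m to the sum of H2-K1 and H2-D1 in FPKM. It was 2.56, 1.86 and 2.16 in TCR alone replicates 1, 2 and 3, and 2.42, 2.36 and 2.70 in TCR+DMGV replicates 1, 2 and 3. The groups overlapped, with TCR alone replicate 2 the lowest. H2-K1 over H2-D1 stayed between 0.980 and 1.04 in all samples.

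The comparison of TCR+DMGV with TCR alone asks whether these genes changed with the compound. All 10 genes passed the filter on low counts, which kept 14786 genes, and no gene of the 10 had an adjusted p under 0.05 in edgeR's quasi-likelihood test with Benjamini-Hochberg adjustment. Their adjusted p-values were all 0.999 or more. Over all genes 2 passed, or 0.0135%. At an unadjusted p under 0.05 there were again 0 of the 10, where 3.19% of all genes had such a p, 1.63% with a higher and 1.56% with a lower mean in TCR+DMGV. DESeq2 also called 0 of the 10, where it called 14 of the 22526 genes with a count. In none of the 10 did the CPM of the groups separate without overlap, as they did for 8.86% of all genes, 4.92% higher and 3.94% lower. Means were higher in TCR+DMGV for 5 genes and lower for 5, against 50.6% of all genes higher. The median log2 fold change of the 10 was 0.016 (range -0.097 to 0.26), beside 0.0024 over all tested genes.

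**Figure D2:**
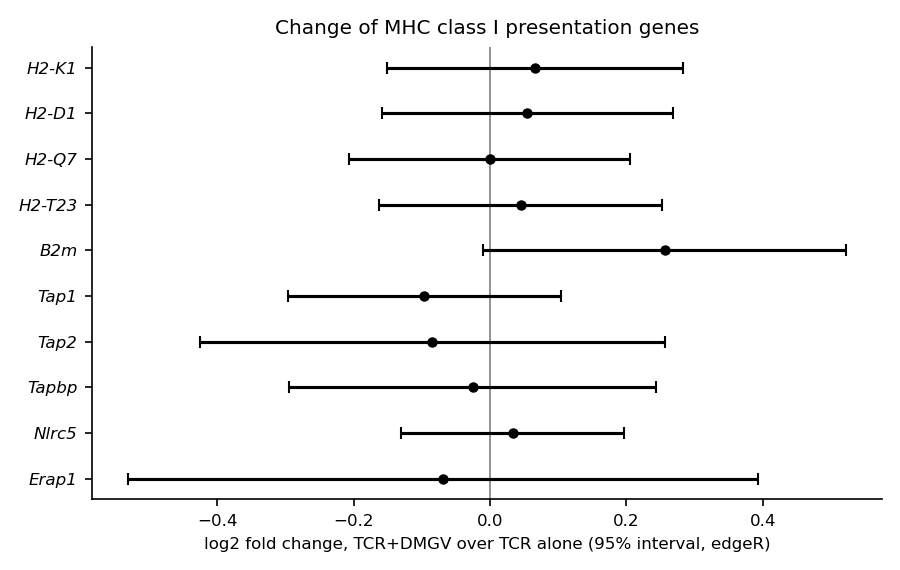
Log2 fold change of TCR+DMGV over TCR alone for each of the 10 genes, with points for the edgeR estimate and bars for its 95% interval (3 samples per group). All 10 intervals include 0, B2m at its lower end (-0.0096), and Erap1 has the widest.

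The 4 heavy chain genes moved little. H2-K1 measured 932, 1027 and 1146 CPM in TCR alone replicates 1 to 3 and 1147, 1043 and 1059.9 CPM in TCR+DMGV replicates 1 to 3. H2-D1 measured 902, 1030.0 and 1107 CPM in TCR alone against 1089, 999 and 1069 CPM in TCR+DMGV, in the same order. For both genes TCR alone replicate 1 was the lowest of all samples, and the TCR+DMGV values lay within or at the edge of the TCR alone range. H2-Q7 measured 261, 275 and 314 CPM in TCR alone against 294, 274 and 283 CPM in TCR+DMGV. H2-T23, whose product is read by the CD94/NKG2 receptors, measured 189, 218 and 227 CPM in TCR alone against 228, 211 and 215 CPM in TCR+DMGV. Again TCR alone replicate 1 was lowest and the groups overlapped. The group means were 1035 ± 107 and 1083 ± 56.1 CPM for H2-K1 (SD, n = 3 each), and the SD was larger in TCR alone for all 4 heavy chains. The log2 fold changes were 0.07 ± 0.09 (SE) for H2-K1, 0.05 ± 0.09 for H2-D1, 0.00 ± 0.09 for H2-Q7 and 0.04 ± 0.09 for H2-T23. In fold terms the 95% intervals were 0.901 to 1.22 for H2-K1, 0.896 to 1.204 for H2-D1, 0.867 to 1.153 for H2-Q7 and 0.893 to 1.19 for H2-T23, so that larger changes lie outside them. Without TCR alone replicate 1 the estimates of H2-K1, H2-D1 and H2-T23 were -0.02, -0.04 and -0.05.

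Reads of the heavy chain genes can be shared with their relatives. Of the 50-base words of the main transcript, 28.8% of H2-T23, 28.4% of H2-Q7, 14.3% of H2-D1 and 8.79% of H2-K1 also occur in transcripts of other genes. At 150 bases these shares were 0.831%, 6.87%, 1.79% and 0%. For H2-Q7 the main transcript is the retained-intron H2-Q7-206, which held 38.2% of its counts, so these shares need not hold for its coding transcripts. How the authors assigned such reads is not stated, so the values of genes that share words are uncertain. H2-T23 shared the most at 50 bases and H2-Q7 at 150 bases, where H2-T23 was below H2-D1. Heavy chains are also among the most polymorphic mouse genes, the reference is C57BL/6J, and the strain of these mice is not in the labels.

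B2m, the light chain, had the largest estimate of the 10. It measured 1558, 1266 and 1614 CPM in TCR alone replicates 1 to 3 and 1797, 1598 and 1906 CPM in TCR+DMGV replicates 1 to 3. TCR+DMGV replicates 1 and 3 were above every TCR alone sample, replicate 2 was level with TCR alone replicates 1 and 3, and TCR alone replicate 2 was far below the rest. The means were 1479 ± 187 and 1767 ± 156 CPM (SD, n = 3 each). The log2 fold change was 0.26 ± 0.11 (SE), with a 95% interval of 0.993 to 1.44-fold, and edgeR's quasi-likelihood test gave an unadjusted p of 0.057 and an adjusted p of 0.999. Without TCR alone replicate 2 the estimate was 0.15. B2m and Erap1 have the lowest GC content of the 10 (41.2% and 41.5%, beside a median of 50.2% over tested genes). After correction for the GC trend the B2m estimate was 0.29, and edgeR gave an unadjusted p of 0.26 and an adjusted p of 0.999.

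The transporter and loading genes had estimates on the other side of 0. Tap1, whose product forms the peptide pump with that of Tap2, measured 216, 213 and 203 CPM in TCR alone against 210, 178 and 204 CPM in TCR+DMGV. Tap2 measured 129, 107 and 141 CPM in TCR alone against 139, 113 and 103 CPM in TCR+DMGV. In Tap1 TCR+DMGV replicate 2 alone was low, while in Tap2 both groups spanned almost the same range. Tapbp measured 189, 165 and 210 CPM in TCR alone against 206, 174 and 173 CPM in TCR+DMGV. Its high samples, TCR alone replicate 3 and TCR+DMGV replicate 1, were the same as those of Tap2. Log2 fold changes were -0.10 ± 0.09 (SE) for Tap1, -0.08 ± 0.15 for Tap2 and -0.03 ± 0.11 for Tapbp, with intervals of 0.814 to 1.07-fold, 0.744 to 1.19-fold and 0.816 to 1.18-fold. Without TCR+DMGV replicate 2 the Tap1 estimate was -0.026.

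Erap1, the aminopeptidase that trims peptides in the endoplasmic reticulum, varied most between samples. It measured 318, 271 and 193 CPM in TCR alone against 207, 248 and 289 CPM in TCR+DMGV. TCR alone replicate 3 and TCR+DMGV replicate 1, the 2 samples whose counts rose with GC, were the lowest, and TCR alone replicate 1 was the highest. The log2 fold change was -0.07 ± 0.20 (SE), an interval of 0.692 to 1.31-fold. After correction for the GC trend it was 0.0087 with an SE of 0.084.

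Nlrc5, the transactivator, varied least. It measured 175, 162 and 160 CPM in TCR alone against 168, 173 and 168 CPM in TCR+DMGV, so that all TCR+DMGV samples lay inside the range of TCR alone. Means were 166 ± 7.80 and 170 ± 2.52 CPM (SD, n = 3 each). The log2 fold change was 0.03 ± 0.07 (SE), the narrowest interval of the 10 at 0.914 to 1.146-fold.

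**Figure D3:**
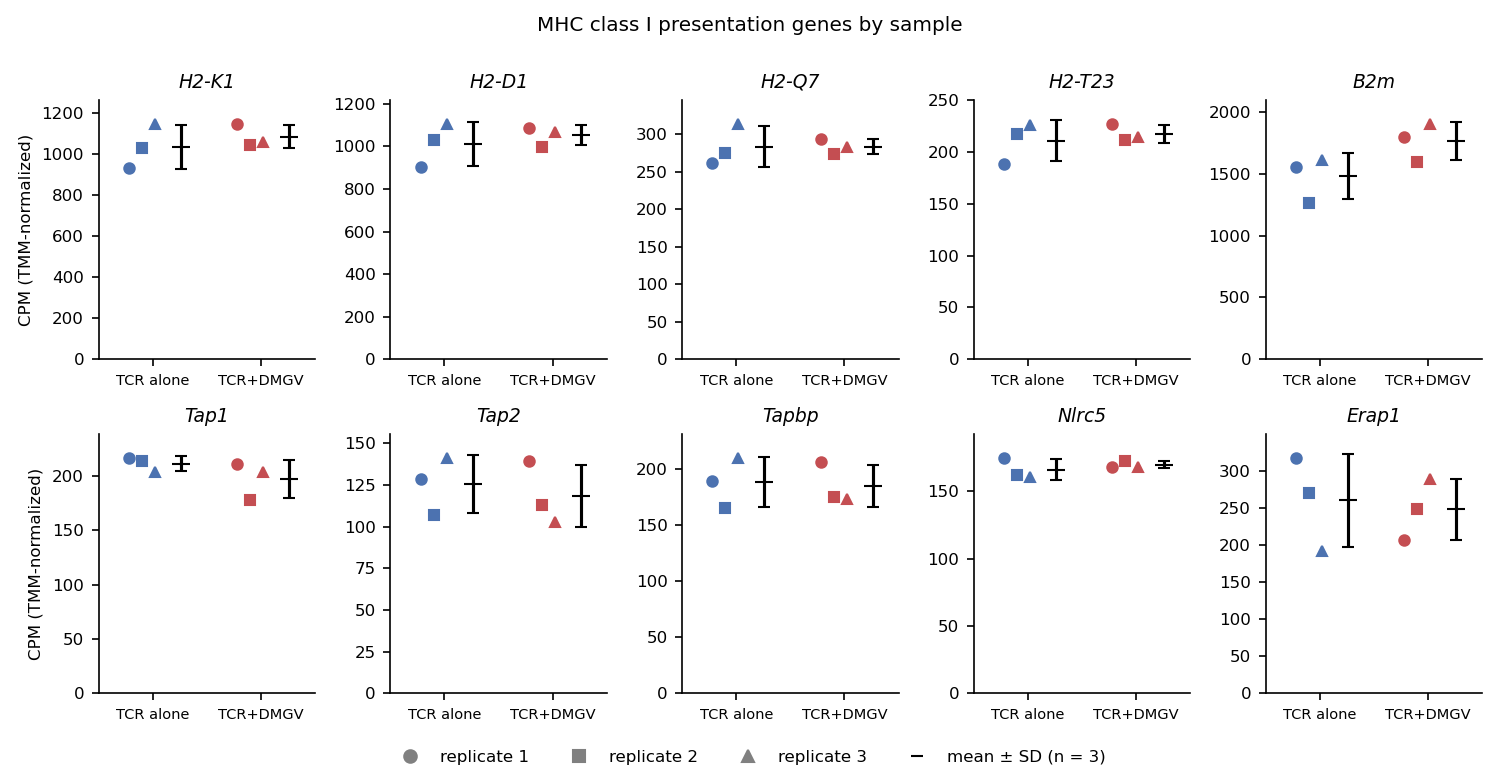
CPM (TMM-normalized, linear axes from 0) of the 10 genes in each sample, with blue points for TCR alone, red points for TCR+DMGV, a marker shape per replicate number and black bars for the mean ± SD (n = 3). The groups overlap in every panel, and TCR alone replicate 1 is the lowest sample of the 4 heavy chain genes.

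The genes fell into patterns over the 6 samples that cut across the groups. The 4 heavy chains varied together, with Pearson r from 0.84 to 0.96 for their 6 pairs on log2 CPM. Tap2 and Tapbp were another pair (r = 0.96). Tap1 followed neither, with r between -0.16 and -0.03 with the heavy chains and 0.24 with Tap2. Erap1 ran opposite to the heavy chains (r from -0.91 to -0.76), and Nlrc5 did so too (r from -0.74 to -0.62), though its whole range was small. B2m had r of 0.15 to 0.38 with the heavy chains. These coefficients describe 6 libraries that share their depth scaling and, for the heavy chains, part of their sequence. The GC trend of the libraries moves with some of these patterns, while Tap1, of the highest GC content, and Nlrc5 did not follow it. The GC content is 52.1% to 57.3% in the 8 genes other than B2m and Erap1. The part of the GC trend in these patterns was not tested.

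**Figure D4:**
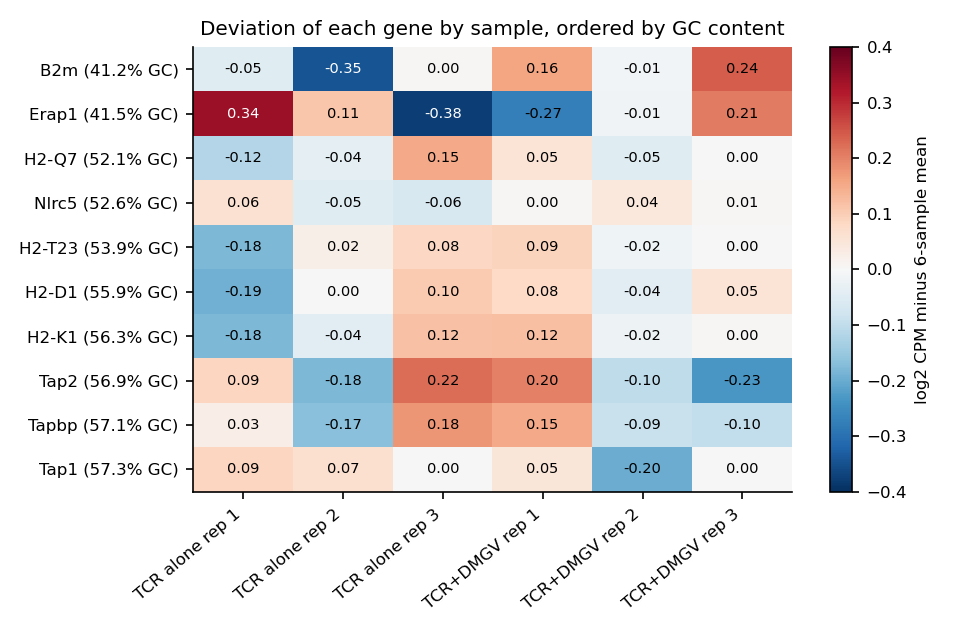
Log2 CPM of each gene minus its 6-sample mean, in colour and as printed values, for each sample (columns) and gene (rows, ordered from low to high GC content of the main transcript). TCR alone replicate 3 and TCR+DMGV replicate 1 share their signs in most genes, with Erap1 low (-0.38 and -0.27) and Tap2 high (0.22 and 0.20).

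By transcript, 48 of the 56 passed the filter and 0 had an adjusted p under 0.05 in edgeR's quasi-likelihood test, as for all 38401 transcripts tested (0%). None of the 48 had an unadjusted p under 0.05, where 3.22% of all transcripts did. With a sample left out, 3 did without TCR alone replicate 1, 2 without TCR alone replicate 3 and 1 without TCR alone replicate 2. The share over all transcripts in those runs is not given here, so these counts cannot be read against it. The groups were without overlap in 4 of the 48, all under 4 CPM on average, where 9.25% of all transcripts were. The lowest unadjusted p, 0.070, belonged to the minor protein-coding H2-K1-205, at 102 ± 18.3 CPM in TCR alone against 130 ± 11.9 CPM in TCR+DMGV. It held 13.3%, 8.81% and 7.98% of the H2-K1 counts in TCR alone replicates 1 to 3 and 11.9%, 11.1% and 12.8% in TCR+DMGV, so the groups overlapped, and TCR alone replicate 1 held the most. The main transcript H2-K1-201 held 87.8% over all samples. The other genes with a dominant transcript were H2-D1 (H2-D1-202, 99.4%), H2-T23 (H2-T23-201, 91.5%, with the retained-intron H2-T23-204 at 6.42%), Tapbp (Tapbp-201, 95%), Erap1 (Erap1-201, 98.8%) and B2m, which has B2m-201 alone in this annotation.

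In H2-Q7, Tap1, Tap2 and Nlrc5 the counts were divided among several transcripts. H2-Q7 counts went to the retained-intron H2-Q7-206 (38.2%) and the protein-coding H2-Q7-201 (23.2%), H2-Q7-204 (20.7%) and H2-Q7-203 (14.7%). All 4 held at least 13.2% in every sample. H2-Q7-201 ranged from 19.1% to 27.2% and H2-Q7-204 from 16.6% to 25.6%, and H2-Q7-204 was above H2-Q7-201 in TCR alone replicates 2 and 3 and below it in the other 4 samples. Nlrc5 was different. Nlrc5-201 held 89.3% of the counts in TCR alone replicate 2 and 91.3% in TCR+DMGV replicate 3, but 1.39%, 5.68%, 1.01% and 0.875% in TCR alone replicates 1 and 3 and TCR+DMGV replicates 1 and 2. In those 4 samples Nlrc5-207 held 64.5%, 64.8%, 77.3% and 71.7%, and Nlrc5-204 held 29.8%, 26.1%, 18.5% and 24.8%. The summed Nlrc5 counts of the 2 samples that stood apart (162 and 168 CPM) lay within the range of the others.

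Tap1 and Tap2 each had a retained-intron transcript that was abundant in 3 of the 6 samples. Tap1-205 held 30.5%, 33.8% and 0.428% of the Tap1 counts in TCR alone against 0.983%, 2.08% and 22.96% in TCR+DMGV. Tap2-202 held 49.6%, 1.17% and 0.565% of the Tap2 counts in TCR alone against 4.97%, 33.9% and 41.8% in TCR+DMGV. Each was high in samples of both groups, and the 3 samples were not the same for both genes. The protein-coding Tap1-201 and Tap1-206 held 70.8% and 9.47% over all samples, and Tap2-201 held 79.4%. A test of transcript use in edgeR, which asks whether a transcript's share differs between groups, found 0 of the 9 genes with more than 1 tested transcript (adjusted p of 1 for each), where 1.39% of all genes were called. A limma test on log ratios of transcript to rest, added after the data were seen, also called 0 of the 9, against 1.13% of all genes.

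**Figure D5:**
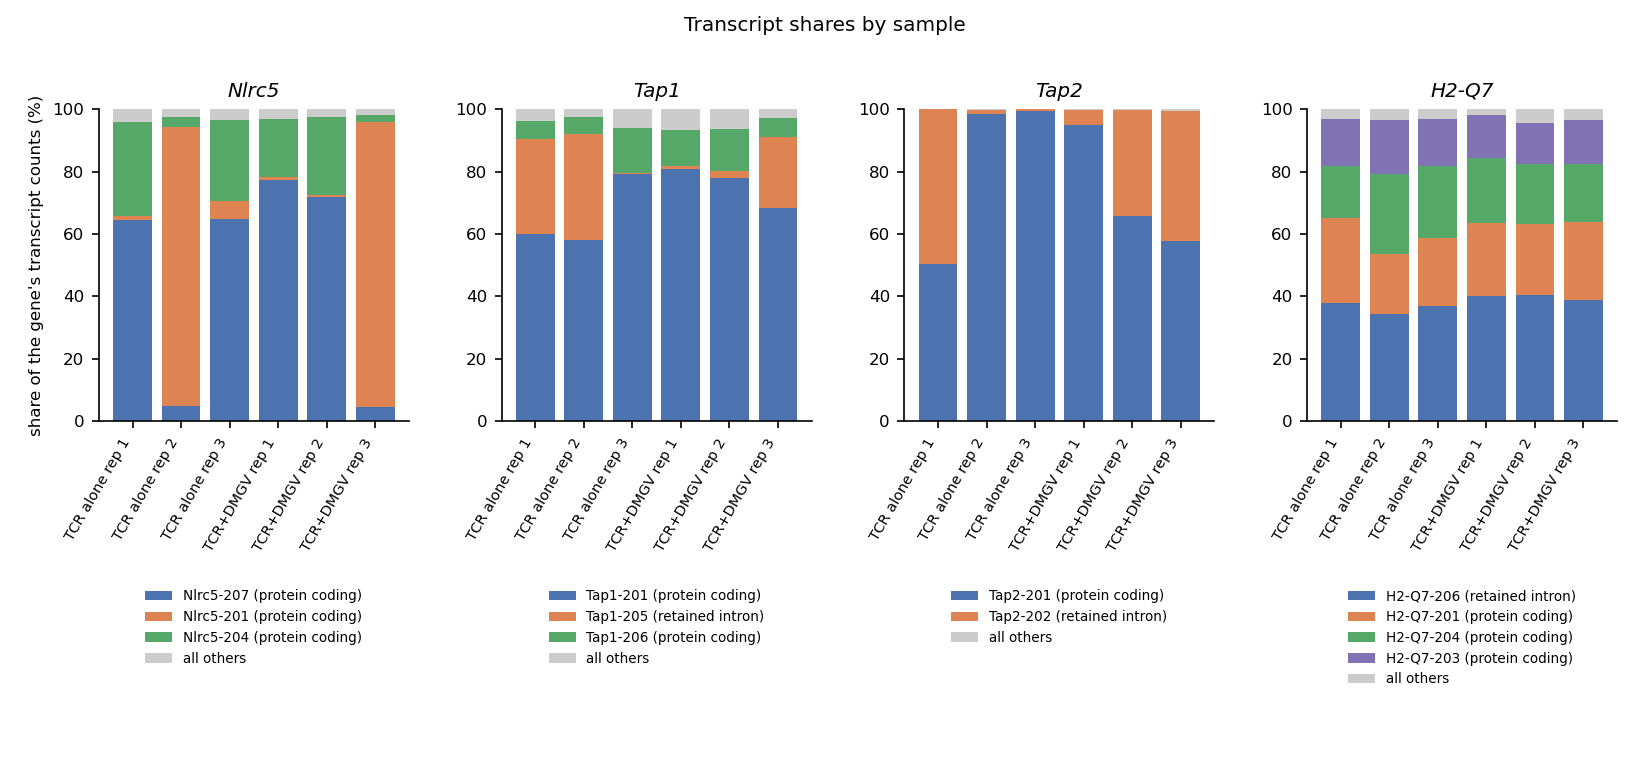
Share of each gene's transcript counts (%) held by its transcripts with at least 5% over all samples, as stacked bars per sample for Nlrc5, Tap1, Tap2 and H2-Q7, with the remaining transcripts in grey. Nlrc5-201 exceeds 89% in TCR alone replicate 2 and TCR+DMGV replicate 3 and stays under 5.7% in the other 4 samples, while each of the 4 H2-Q7 transcripts holds at least 13.2% in all samples.

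The wider pathway was followed in 8 further lists of 116 genes, of which 109 were tested. In edgeR's quasi-likelihood test 0 passed the adjusted threshold and 6 had an unadjusted p under 0.05, beside the 0.0135% and 3.19% of all genes. Means were higher in TCR+DMGV for 54 and lower for 55.

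Among 17 other class I and class I-like chains, 12 were tested, 6 with a higher and 6 with a lower mean, and the median log2 fold change was 0.0033. The genes given for each list are the 2 of its smallest p, and all adjusted p-values in the 8 lists were 0.999 or more in edgeR's test. H2-T10, a heavy chain gene near H2-T23, averaged 20.3 ± 0.337 CPM in TCR alone against 17.5 ± 0.543 CPM in TCR+DMGV (SD). Of the 12 tested, it was the 1 whose groups did not overlap, where 8.86% of all genes did not. H2-Q10, best known from liver, averaged 2.05 ± 0.660 and 2.95 ± 0.436 CPM. H2-M2, H2-M5 and H2-Bl had 0 counts in every sample.

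In the loading list, of chaperones, glycan enzymes, translocon subunits and signal peptide peptidase, all 12 were tested, 7 with a higher and 5 with a lower mean, and the median was 0.016. Hm13, encoding signal peptide peptidase, averaged 207 ± 11.6 and 235 ± 36.5 CPM, and Bcap31, an export chaperone for class I, 123 ± 2.32 and 132 ± 5.93 CPM. Of the 12, groups did not overlap in 1, Bcap31. Of 9 proteasome genes, which make the peptides, 7 had a higher and 2 a lower mean, with a median of 0.07. The activator subunit gene Psme1 averaged 240 ± 20.2 and 260 ± 21.9 CPM and the constitutive subunit gene Psmb5 132 ± 14.0 and 143 ± 6.73 CPM. The immunoproteasome genes Psmb8 and Psmb9 averaged 247 ± 36.5 and 260 ± 4.91 CPM, and 78.6 ± 12.3 and 73.0 ± 5.66 CPM, and both overlapped between groups. Of 8 other peptidases, 3 had a higher and 5 a lower mean (median -0.06). Their lowest p-values were those of Blmh (120 ± 8.66 and 112 ± 1.98 CPM) and Rnpep (112 ± 4.40 and 108 ± 2.89 CPM).

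All 26 regulator genes were tested, 11 with a higher and 15 with a lower mean and a median of -0.02. In edgeR's test 2 had an unadjusted p under 0.05, where 3.19% of all genes did. Groups did not overlap in the same 2, Rfxap and Ezh2, where 8.86% of all genes did not. Rfxap, a subunit of the RFX complex at the class I and II promoters, averaged 18.6 ± 1.86 CPM in TCR alone against 22.97 ± 0.919 CPM in TCR+DMGV, a log2 fold change of 0.30 ± 0.11 (SE). Its partner Rfx5 averaged 20.7 ± 5.55 and 19.0 ± 6.07 CPM and overlapped between groups. Ezh2, the H3K27 methyltransferase, averaged 245 ± 4.04 and 218 ± 8.96 CPM, a log2 fold change of -0.17 ± 0.07 (SE). Irf1, which carries interferon signals to these promoters, averaged 128 ± 16.0 and 120 ± 7.28 CPM and overlapped between groups. In the list of 5 genes of surface turnover, 4 were tested and all 4 had a higher mean, among them Tmem127 (48.5 ± 1.54 and 52.3 ± 1.86 CPM) and Susd6 (52.0 ± 2.26 and 54.2 ± 1.35 CPM). Of the 4, groups did not overlap in 1, Tmem127.

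Class II genes, which present peptides to CD4+ T cells and are little used by mouse T cells, were low, the 11 together at 104 to 123 CPM in TCR alone against 104 to 122 CPM in TCR+DMGV. H2-Eb1 averaged 3.00 ± 0.659 and 4.44 ± 0.727 CPM, H2-Oa 3.43 ± 0.676 and 2.72 ± 0.563 CPM, and the class II transactivator Ciita 0.646 ± 0.492 and 0.636 ± 0.541 CPM. Of the 11, groups did not overlap in 1, H2-Eb1, where 8.86% of all genes did not. Of 28 interferon-stimulated genes, 27 were tested, 11 with a higher and 16 with a lower mean (median -0.03). Groups did not overlap in 5 of these genes, 3 higher and 2 lower in TCR+DMGV, where 8.86% of all genes did not. An unadjusted p under 0.05 was found for 3, where 3.19% of all genes had such a p. These 3 were all higher in TCR+DMGV: Irf7 (2.73 ± 0.491 and 4.08 ± 0.226 CPM), Usp18 (25.9 ± 1.24 and 31.1 ± 1.59 CPM) and Ifit1 (3.31 ± 0.438 and 4.79 ± 0.823 CPM), the last named after its values were seen. None passed after adjustment.

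The genes whose log2 CPM over the 6 samples most resembled the mean deviation of the 10 were Zfp384 (Pearson r = 0.99), Psmd8 (0.98), Gm23935 (0.97), Gtf3c6 (0.97) and Zfhx2 (0.97). Psmd8 encodes a proteasome regulatory subunit and Gtf3c6 a subunit of a factor for RNA polymerase III. These are the highest of 9027 genes compared over 6 samples, of which 99 had r above 0.9, and the lowest r was -0.99. The mean deviation itself ran only from -0.062 in TCR alone replicate 2 to 0.063 in TCR+DMGV replicate 1. It averages members that ran opposite to each other, such as Erap1 and the heavy chains, so it need not resemble any single member.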

How the data were processed

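RNA-seq of 6 samples (3 TCR alone, 3 TCR+DMGV) was used. The authors used SOAPnuke to filter reads, HISAT2 to map them (version 2.0.4 in the submitters' processing notes) and StringTie to estimate expression. The deposited counts, for genes and for transcripts, are whole and not normalized, and the counting step is not given in the sources used here. The deposited FPKM values are scaled by the authors to length and to the sample's total. The submitters' notes name the build mm9, but 99.7% of gene identifiers match GENCODE M21, which annotates GRCm38, and coordinates and symbols come from it by identifier. Library preparation is given, its strandedness is not.

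Gene and transcript counts were tested in edgeR 4.0.16 (R 4.3.3) with TMM normalization, the default low-count filter and the quasi-likelihood test, two-sided, with Benjamini-Hochberg adjustment over all features tested and a threshold of 0.05. All 6 samples entered without covariates. CPM is TMM-scaled. Transcript use was tested with edgeR's diffSpliceDGE. The fits were tested on simulated counts, in which diffSpliceDGE also called unchanged genes, so a limma 3.58.1 test on log ratios (pseudocount 0.5) was added. Alternatives were DESeq2 1.42.0, other scalings and filters, summed transcript counts, limma on log2(FPKM + 1) and log2(FPKM + 0.1), a GC correction (loess, span 0.3, on genes of mean log2 CPM over 3), the replicate number as a block and each sample left out. The GC trend used the same limit on genes. No pair of samples was alike within sampling noise (median chi-square per gene 3.88 to 9.02). Counts as deposited limit precision through their totals. Python 3.11.15, pandas 2.3.3 and matplotlib 3.10.9 were used for tables and figures.

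Members, lists and tests were chosen with earlier results of these data known. Named were the 10 members, their transcripts with at least 5% of the gene's counts, in each other pathway list the 2 tested genes of smallest p along with Psmb8, Psmb9, Irf1, Rfx5 and Ciita, and the 5 genes of highest correlation with the members' mean deviation among those of mean log2 CPM of 3 or more. Some genes that this rule or the lists include are not reported here. All 196 list entries were matched.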

Additional observations from a re-analysis of the deposited data

How the results depend on the processing

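In no alternative run did a member, another pathway gene, a member transcript or a member's transcript use pass the adjusted threshold. Over all genes 0 to 14 passed in these runs, the most in DESeq2. The lowest adjusted p of a member over all runs was 0.65 (B2m, in edgeR's test without TCR alone replicate 3). With the replicate number as a block, 1 member (B2m) had an unadjusted p under 0.05 in edgeR's test, where 2.30% of all genes did. H2-Q7 was then at 0.0033 on the log2 scale. The deviations of same-numbered samples correlated at -0.15, 0.12 and -0.15. The GC trend of the libraries also enters these values, so they cannot tell whether the numbers pair the samples. H2-Q7, at -0.00047 in the report, was also above 0 with all genes with a count (0.00022), with summed transcript counts (7.5e-05) and, chosen after seeing the data, in the 4 samples without the rising GC trend (0.055). Erap1 was at 0.0087 with the GC correction and 0.0076 with the block and GC correction together. Member transcripts with an unadjusted p under 0.05 numbered 1 with the block, 1 with all transcripts with a count, and 0 to 3 with a sample left out. The shares over all transcripts in these runs are not given here. Per kb of the main transcript, 3 neighbouring pairs of levels overlapped. With each sample left out in turn, 0 to 1 members had an unadjusted p under 0.05. That member was B2m, without TCR alone replicate 3 or TCR+DMGV replicate 2. In edgeR's test 7.30% of all genes had such a p without TCR alone replicate 3 and 2.60% without TCR+DMGV replicate 2. Members with a higher mean numbered 3 (without TCR alone replicate 1) to 8 (without TCR alone replicate 3 or TCR+DMGV replicate 3). The log2 fold changes then ran from -0.021 to 0.15 for H2-K1, -0.039 to 0.13 for H2-D1, -0.074 to 0.085 for H2-Q7, -0.046 to 0.10 for H2-T23, -0.22 to 0.014 for Tap2, -0.12 to 0.066 for Tapbp, -0.15 to -0.026 for Tap1, 0.015 to 0.056 for Nlrc5, 0.15 to 0.33 for B2m and -0.24 to 0.083 for Erap1. The causes were not tested. With 3 samples per group, the exact permutation test of 1 value cannot go below p = 0.1, and the intervals in the report set the size of change that could have been missed.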
